A study of Mus musculus with 12 samples.

Results

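The response of wild-type mouse embryonic stem cells to etoposide was described by comparing 3 RNA libraries of treated cells with 3 of untreated cells, out of 12 libraries in the series. The genes described were the 14018 of 41079 gene IDs with a mean level of at least 1 TPM (a level corrected for gene length and scaled to a fixed total per library) over these 6 libraries. The etoposide group was wild type for Bod1l and exposed to etoposide. The untreated group was wild type for Bod1l and received no etoposide. The other 6 libraries came from Bod1l knockout cells, with and without etoposide, whose titles name tamoxifen, an agent that the wild-type titles do not name. The dose and duration of etoposide, the parental line and the means of deletion are not given in the sources used here. The replicates are called biological without mention of separate cultures, so the tests rest on library-to-library spread, part of which may be technical.

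Etoposide is a topoisomerase II poison that keeps the enzyme attached to the DNA ends it has cut, and double-strand breaks result. Such breaks activate the kinases ATM and ATR, which stabilise the transcription factor p53 mainly at the protein level. p53 raises the transcription of genes that arrest the cell cycle, promote cell death, alter metabolism and repair DNA, and it raises Mdm2, whose product degrades p53. In embryonic stem cells p53 activity is also linked to loss of self-renewal and to differentiation.

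The 6 libraries separated by treatment. The first principal component held 64.4% of the variance and placed the etoposide libraries between 19.5 and 20.2 and the untreated libraries between -20.2 and -19.3. Depth, estimated from the ratio of deposited coverage to FPKM, was 5.78 to 7.04 aligned gigabases in the etoposide libraries and 6.64 to 7.30 in the untreated libraries. The stem cell identity in the labels was met by 9 tested markers, whose summed level was 7669 to 7989 TPM in etoposide and 8184 to 8202 TPM in untreated cells. Of 13 fibroblast and feeder markers, 4 were tested, 1 was higher (Col1a1, by 0.33) and 2 were lower. Their summed level was 1049 to 1068 TPM in etoposide and 1123 to 1200 TPM in untreated cells, nearly all of it from Fn1 (log2 change -0.11) and Vim (-0.16), and its part in the results was not tested. Col3a1, S100a4 and Fap were listed at 0 in all 6 libraries. Of 10 blood and macrophage markers, Cd68 alone was tested, with a log2 change of 0.45, and Adgre1, Tyrobp and Aif1 were listed at 0 in all 6. Bod1l itself, the gene under study in the series, did not differ past the threshold, with 46.5, 51.1 and 48.6 TPM in etoposide against 48.5, 48.8 and 50.6 TPM in untreated cells (log2 change -0.02 ± 0.05).

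Etoposide changed the level of 4834 of the 14018 genes, or 34.5%, by limma with Benjamini-Hochberg adjustment over all genes tested and an adjusted p under 0.05. Of these, 2919 genes (20.8%) were higher and 1915 (13.7%) were lower in etoposide. All changes below are differences of log2(TPM + 1) between the group means, given with the standard error of the fit (n = 3 each), and this scale understates the change of genes near 1 TPM. A rise of at least 1.5-fold was called for 882 genes (6.29%) and of at least 2-fold for 344 genes (2.45%). A fall of at least 1.5-fold was called for 51 genes (0.364%) and of at least 2-fold for 1 entry (0.00713%), a microRNA annotated within another gene. After quantile normalization 678 genes rose and 162 fell by at least 1.5-fold, with a pseudocount of 0.1 98 fell by that much, and on FPKM 515 rose and 23 fell. The 3 etoposide libraries lay above all 3 untreated libraries for 3797 genes (27.1%) and below them for 2758 genes (19.7%). TPM values are shares of a fixed total, and the balance of directions depended on the scaling and on the genes tested. Higher genes made up 60.4% of the calls on TPM, 51.1% after median-of-ratios scaling and 43.6% after quantile normalization. On FPKM they made up 52.2%, over the 11985 genes averaging at least 1 FPKM. With a filter at mean TPM 5 they made up 55.1% on TPM. A list count on FPKM below can be smaller because members were not tested. In bulk RNA, a change in the number of cells of one type and a change in RNA per cell cannot be told apart.

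**Figure D1:**
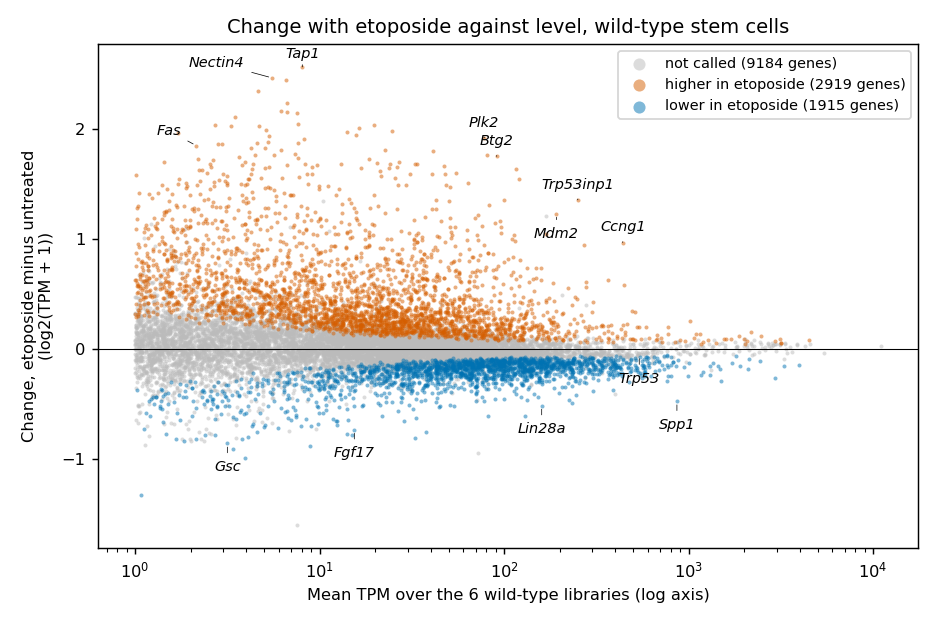
Each point is 1 of the 14018 genes, with the mean TPM over the 6 wild-type libraries on a log axis and the change in log2(TPM + 1), etoposide minus untreated, on the other. Orange points are the 2919 genes called higher, blue points the 1915 called lower and grey points those not called. Gains reach 2.56 for Tap1, and the called losses of abundant genes lie within 1 log2 unit of 0.

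Trp53 RNA, which encodes p53, did not pass the test. It had 532, 534 and 524 TPM in etoposide against 561, 561 and 528 TPM in untreated cells (log2 change -0.05 ± 0.02, limma adjusted p 0.102). The groups overlapped, and the change was called lower after median-of-ratios scaling (-0.08, limma adjusted p 0.0228) and without untreated library 3 (-0.08, limma adjusted p 0.00763). Among 13 tested genes for p53 and its regulators, 7 were higher (53.8%) and 1 was lower (7.69%), against 20.8% and 13.7% of all genes tested. Their median change was 0.37 against 0.02 over all genes tested. Mdm2, which encodes the ubiquitin ligase that degrades p53, had 259, 275 and 275 TPM in etoposide against 115, 113 and 115 TPM in untreated cells, a 2.36-fold ratio (log2 change 1.23 ± 0.03, limma adjusted p 1.34e-10). Its partner Mdm4, which restrains p53 activity, had 348, 374 and 348 TPM in etoposide against 186, 186 and 182 TPM in untreated cells (0.95 ± 0.04). Every etoposide library exceeded every untreated library for both genes. Ccng1 encodes cyclin G1, a p53-induced binding partner of MDM2. Among called genes with separate groups, leaving out clone and model names, Ccng1 gained the most TPM. It had 568, 586 and 592 TPM in etoposide against 291, 297 and 303 TPM in untreated cells (0.97 ± 0.03). The phosphatase gene Ppm1d, which dampens damage signalling, rose by 0.64 ± 0.04 and the ubiquitin ligase gene Rchy1 by 0.46 ± 0.04. The p53 relative Trp73 rose to 28.6, 29.5 and 29.0 TPM in etoposide, against 8.11, 8.27 and 7.76 TPM in untreated cells (1.73 ± 0.05). Atm and Chek2, which encode the damage kinases upstream of p53, had log2 changes of 0.00 and 0.03 and were not called. Usp7, whose product removes ubiquitin from MDM2 and p53, was 0.10 lower in etoposide, a call that was lost after quantile normalization.

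The known p53 targets were divided by role. Of 63 tested targets 45 were higher (71.4%) and 4 lower (6.35%), against 20.8% and 13.7% of all genes tested. Their median change was 0.60. In the growth arrest group 14 of 19 genes were higher and 2 lower. Plk2, a polo-like kinase, had 121, 125 and 125 TPM in etoposide against 32.8, 30.4 and 33.0 TPM in untreated cells, a 3.87-fold ratio (1.92 ± 0.04, limma adjusted p 6.7e-12). Btg2, an antiproliferative co-regulator of mRNA decay, had 145, 138 and 141 TPM in etoposide against 41.8, 40.1 and 41.7 TPM in untreated cells (1.75 ± 0.03). Neither gene showed any overlap between groups. Cdkn1a, encoding the cyclin-dependent kinase inhibitor p21, reached 218, 221 and 228 TPM in etoposide against 150, 145 and 143 TPM in untreated cells, a 1.52-fold ratio (0.60 ± 0.04). The receptor-type phosphatase gene Ptprv rose by 1.80 ± 0.06, the phosphatase gene Ptp4a3 by 1.63 ± 0.05, and Phlda3, an inhibitor of AKT signalling, by 1.00 ± 0.05. Gtse1 and Ckap2, which act on microtubules in dividing cells, rose by 0.45 ± 0.02 and 0.64 ± 0.03. Gadd45a rose by 0.58 ± 0.05, and Gadd45b fell by 0.38 ± 0.05 on the log2 scale, while the third damage-inducible GADD45 gene, Gadd45g, was not called (-0.04).

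In the cell death group 16 of 19 tested targets were higher and 1 was lower, with a median change of 0.71. Bbc3 and Pmaip1 encode PUMA and NOXA, BH3-only proteins that disable the survival proteins of the BCL2 family. Bbc3 had 58.2, 58.0 and 56.8 TPM in etoposide against 22.8, 24.1 and 23.1 TPM in untreated cells (1.27 ± 0.06, limma adjusted p 7.19e-09). Pmaip1 had 18.8, 18.4 and 17.5 TPM in etoposide against 5.83, 6.17 and 6.91 TPM in untreated cells (1.40 ± 0.09). The executioner gene Bax, an abundant transcript, rose 1.15-fold, to 566, 565 and 548 TPM in etoposide against 508, 484 and 469 TPM in untreated cells (0.20 ± 0.03). All 3 genes were higher in every etoposide library than in any untreated library. Trp53inp1, which promotes p53 phosphorylation and autophagy, had 350, 369 and 364 TPM in etoposide against 139, 141 and 141 TPM in untreated cells (1.36 ± 0.04). The death receptor gene Fas, had 4.78, 3.50 and 3.49 TPM in etoposide against 0.35, 0.15 and 0.61 TPM in untreated cells (1.85 ± 0.15). Perp, a membrane protein of desmosomes and cell death, rose by 1.66 ± 0.06, and Apaf1, the apoptosome scaffold, by 1.19 ± 0.05. Bak1, the other executioner besides Bax, fell by 0.18 ± 0.04 on the log2 scale. Rchy1, Ptprv, Apaf1, Bak1, Gls2 and Ddb2 each overlap an expressed gene on the other strand, and whether counting used the strand is not stated, so their values are uncertain. Of 22 tested apoptosis genes outside the target lists, 6 were higher (27.3%) and 1 was lower (4.55%), against 20.8% and 13.7% of all genes tested.

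**Figure D2:**
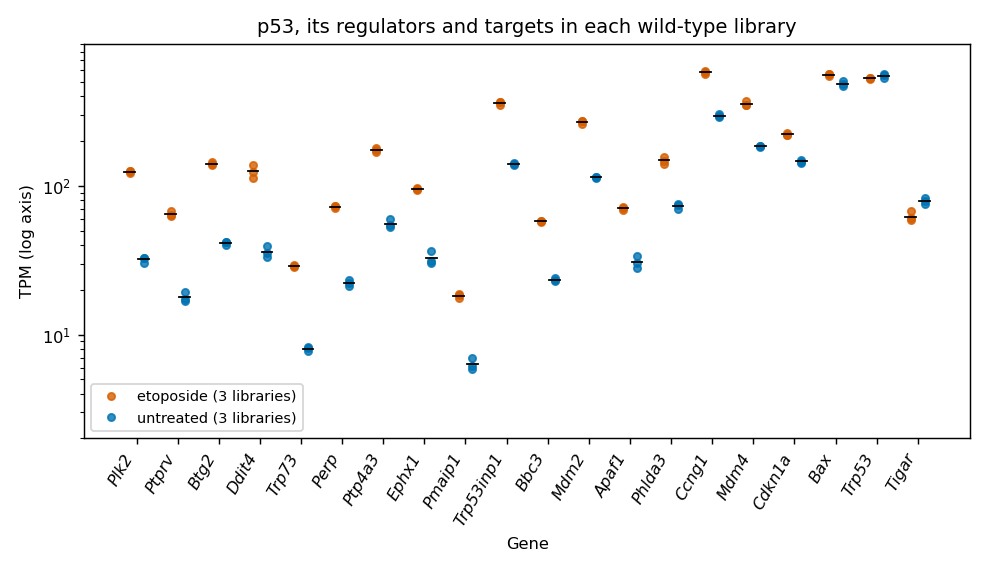
TPM on a log axis of 20 genes for p53, its regulators and its targets, with 1 point per library (orange etoposide, blue untreated, 3 each) and a bar at each group's mean. Plk2 averages 124 TPM in etoposide against 32.05 in untreated cells, Trp53 shows overlapping groups, and Tigar is lower in etoposide.

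Among 25 p53 targets of metabolism and repair, 15 were higher (60%) and 1 was lower (4%), against 20.8% and 13.7% of all genes tested. Ddit4, whose product restrains mTORC1, had 123, 113 and 139 TPM in etoposide against 35.4, 39.5 and 33.3 TPM in untreated cells (1.76 ± 0.07). Ephx1, a detoxifying epoxide hydrolase gene, rose by 1.51 ± 0.06, and Lpin1, a regulator of lipid synthesis, by 1.16 ± 0.04. Sesn2, a sensor of leucine upstream of mTORC1, rose by 0.74 ± 0.03. Sesn1, of the same family, had 16.6 TPM in etoposide and 16.0 TPM in untreated cells on average and was not called. The repair targets Ercc5, a nucleotide excision nuclease gene, and Polk, a translesion polymerase gene, rose by 1.07 ± 0.11 and 1.00 ± 0.06. Tigar, which slows glycolysis, had 58.6, 60.8 and 67.3 TPM in etoposide against 83.3, 76.0 and 78.7 TPM in untreated cells and so fell by 0.35 ± 0.07 on the log2 scale (limma adjusted p 0.00147). Classical targets that did not pass the test were Rrm2b (0.05), Gls2 (-0.08), Xpc (0.02) and Polh (0.09). Among noncoding p53-responsive genes, Pvt1 rose by 0.93 ± 0.07. Neat1, the scaffold RNA of paraspeckles, had 223, 233 and 202 TPM in etoposide against 168, 32.1 and 152 TPM in untreated cells. Its groups did not overlap, but untreated library 2 stood far below the others and the change of 1.21 ± 0.45 was not called (limma adjusted p 0.0543). Without that library it was 0.45 (limma adjusted p 0.00268), and it was also called when either other untreated library was left out.

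Promoters of the tested genes were searched for the p53 response element, because most of the listed p53 targets were higher. The sequences are RefSeq promoters of build GRCm38.p6, from 250 bases before to 50 after an annotated start, and 10402 of the 14018 tested genes had one. The deposited gene coordinates are of build GRCm39, and the sequences were joined by gene symbol alone. A match had at most 2 of 20 letters off the consensus and an inner spacer of at most 1 base, with the motif CNNG kept in each of its parts. The consensus reads the same on both strands. It was found for 23 of 662 genes higher by 1.5-fold or more (3.47%), 25 of 1622 genes higher by less (1.54%), 43 of 6651 genes not called (0.647%) and 9 of 1467 lower genes (0.613%). Over all genes with a promoter the share was 0.961%. Among the coding targets of growth arrest, cell death, metabolism and repair called higher, 4 of 36 genes had a promoter with a match (11.1%). The motif TGANTCA, bound by AP-1 factors, reads the same on both strands. It was found for 8.16% of the 662 genes higher by 1.5-fold or more and for 5.74% of all 10402 genes. A gene counted if any of its promoters held a match, and these classes averaged 1.32 and 1.27 promoters per gene. A match is a run of letters and no evidence of binding, and many p53 sites lie outside such short windows. The promoters of Ccng1, Cdkn1a and Trp73 are shown whole because these genes of the p53 lists were called higher and hold a match, which is in capitals. The Ccng1 promoter is at chr11:40755237-40755536 on the minus strand, and its match begins 195 bases before the start site and is 1 letter off. The Cdkn1a promoter, at chr17:29090729-29091028 on the plus strand, belongs to the upstream of its annotated starts, and its match begins 51 bases before that start and is 1 letter off. The Trp73 promoter shown, at chr4:154097124-154097423 on the minus strand, is that of an annotated start, and whether this is the main start was not checked. Its match begins 66 bases before that start and is 2 letters off.
Ccng1: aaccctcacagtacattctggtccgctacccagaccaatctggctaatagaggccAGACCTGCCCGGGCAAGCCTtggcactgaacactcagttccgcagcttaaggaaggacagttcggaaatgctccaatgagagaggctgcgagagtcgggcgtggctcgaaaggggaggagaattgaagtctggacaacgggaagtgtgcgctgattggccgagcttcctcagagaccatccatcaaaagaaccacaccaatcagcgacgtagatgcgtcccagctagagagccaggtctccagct
Cdkn1a: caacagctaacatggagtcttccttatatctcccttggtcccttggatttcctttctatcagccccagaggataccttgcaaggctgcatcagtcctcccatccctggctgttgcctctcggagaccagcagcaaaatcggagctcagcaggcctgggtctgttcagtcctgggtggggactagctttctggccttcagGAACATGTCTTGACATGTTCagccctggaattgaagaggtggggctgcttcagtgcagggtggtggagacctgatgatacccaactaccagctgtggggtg
Trp73: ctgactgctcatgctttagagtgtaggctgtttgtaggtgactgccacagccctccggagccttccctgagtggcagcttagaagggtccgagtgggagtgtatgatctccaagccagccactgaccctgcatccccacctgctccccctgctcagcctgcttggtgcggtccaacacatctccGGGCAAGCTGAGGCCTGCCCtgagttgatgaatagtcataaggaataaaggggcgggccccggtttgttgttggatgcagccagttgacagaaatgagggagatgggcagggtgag

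The remaining matches shown are those of Ckap2, Notch3 and Sptbn4, each with up to 8 flanking bases. Ckap2 is a growth arrest target from the lists, Notch3 belongs to a signalling list below, and Sptbn4, a spectrin gene, was chosen after its values were seen because its match has 0 letters off. The Ckap2 promoter is at chr8:22185770-22186069, the Notch3 promoter at chr17:32166841-32167140 and the Sptbn4 promoter at chr7:27396149-27396448, all on the minus strand. The matches begin 203 bases before the start site in Ckap2, 24 bases after it in Notch3 and 55 bases before it in Sptbn4. Sptbn4 averaged 23.2 TPM in etoposide and 14.1 TPM in untreated cells, a 1.64-fold ratio.
Ckap2: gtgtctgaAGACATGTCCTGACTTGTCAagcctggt
Notch3: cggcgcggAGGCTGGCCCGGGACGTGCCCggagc
Sptbn4: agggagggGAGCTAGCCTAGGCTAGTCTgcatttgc

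The genes with the highest changes on the log2(TPM + 1) scale were mostly outside the p53 lists and low without etoposide. Tap1, the peptide transporter of antigen presentation, headed them, with 14.4, 14.2 and 14.9 TPM in etoposide against 1.65, 1.62 and 1.60 TPM in untreated cells, an 8.94-fold ratio (2.56 ± 0.09, limma adjusted p 1.08e-09). Its neighbour Psmb9, an immunoproteasome gene on the opposite strand, rose by 0.77 ± 0.18, and its 3 untreated libraries were all under 1 TPM. Of 18 tested antigen presentation genes, with Tap1 and Psmb9 among them, 3 were higher (16.7%) and 3 lower (16.7%). These shares were near the 20.8% and 13.7% of all genes tested. Tapbp, encoding the loading chaperone tapasin, changed by -0.34 ± 0.04. Nectin4, an adhesion molecule, had 10.0, 9.86 and 10.3 TPM in etoposide against 1.18, 0.81 and 1.04 TPM in untreated cells (2.46 ± 0.09). Ano7, of the anoctamin family, rose by 2.35 ± 0.09, and the homeobox gene Nkx2-9 by 2.23 ± 0.12. Ltb4r1, a leukotriene B4 receptor gene, rose by 2.15 ± 0.10, and Ddit4l, a relative of Ddit4, by 1.98 ± 0.05. Other genes among the 20 highest were Dusp13b, Plcd4, Anxa8, Sec14l5, Sytl1, Plch2, Ankrd65, Ppp1r36, Them5, Zfp750, Fosl1, Azin2 and Col9a3, with changes between 1.94 and 2.44. By the ratio of means the order differed, with 32.1-fold for Fosl1, 10.9-fold for Plch2, 9.95-fold for Nectin4 and 9.93-fold for Ano7. The Fosl1 ratio rests on untreated values near 0, with 3.74, 2.90 and 3.30 TPM in etoposide against 0.04, 0.10 and 0.17 TPM in untreated cells. Plcd4, Zfp750, Fosl1 and Col9a3 likewise overlap an expressed gene on the other strand. Of the 882 genes higher by 1.5-fold or more, 479 averaged below 5 TPM in untreated cells and 403 averaged 5 TPM or more. The number of genes at 1 TPM or above was 14129, 14270 and 14229 in the etoposide libraries against 13739, 13718 and 13769 in the untreated libraries.

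The direction of change varied with level and with the length of the gene. Among genes averaging 1 to 5 TPM, 20.5% were higher and 3.4% lower in etoposide. Among those above 200 TPM, 12.4% were higher and 37.4% lower. The share called also depends on precision, since the median standard error was 0.14 in the lowest class and 0.03 in the highest. Level was not matched in the counts of gene lists, several of which hold abundant genes. Genes spanning under 5 kb were called higher in 13.8% of cases and lower in 9.25%, whereas the 445 genes spanning 200 kb or more were higher in 29.4% and lower in 7.19%. The median change of these longest genes was 0.10. The order held among genes averaging at least 5 TPM, where 91 of 303 such long genes were higher and 28 lower, and the median stayed above 0 after median-of-ratios scaling (0.07). That cut did not match level, since these 303 genes had a median level of 16.6 TPM against 33.6 TPM for those under 5 kb. Among genes of any length averaging 5 to 20 TPM, 26.1% were higher and 6.83% lower. The part of level in the pattern by length was not tested.

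**Figure D3:**
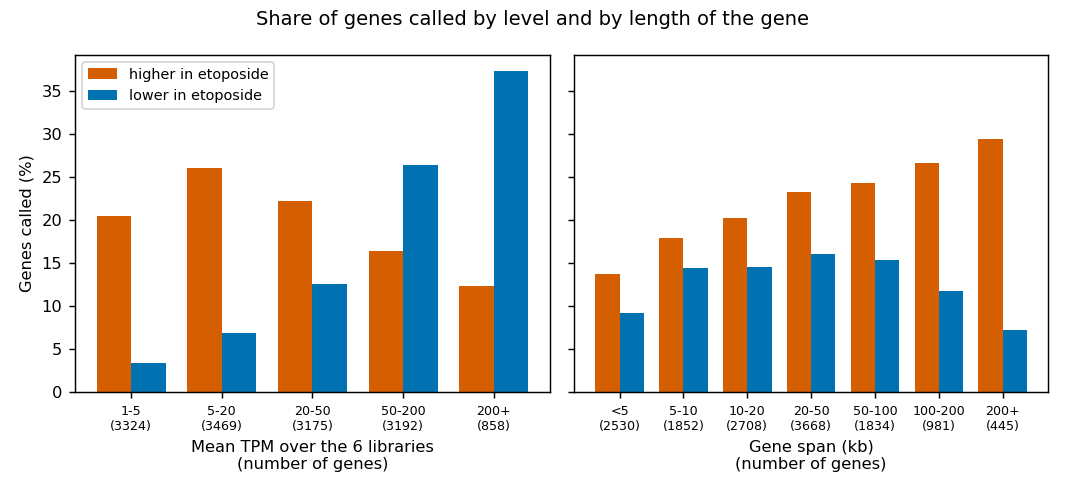
Bars give the percent of genes called higher (orange) and lower (blue) in etoposide, by mean TPM over the 6 libraries (left) and by the span of the gene in kb (right), with the number of genes in parentheses. The share of lower calls rises with level to 37.4% above 200 TPM, and the share of higher calls rises with span to 29.4% from 200 kb upward.

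Naive pluripotency genes moved downward in small steps. Of 29 tested, 18 were lower (62.1%, against 13.7% of all genes tested), 1 was higher and 10 were not called, with a median change of -0.18. Their summed level was 11900 to 12150 TPM in etoposide and 12880 to 12950 TPM in untreated cells. Among all genes of 50 to 200 TPM 26.4% were lower, and above 200 TPM 37.4%. The part of level in the count of lower naive genes was not tested. Pou5f1, encoding OCT4, had 1376, 1339 and 1357 TPM in etoposide against 1524, 1524 and 1484 TPM in untreated cells (-0.15 ± 0.02). Nanog had 671, 694 and 690 TPM in etoposide against 786, 770 and 773 TPM in untreated cells (-0.18 ± 0.02, limma adjusted p 1.24e-05). For both factors every etoposide library lay below the lowest untreated library. Lin28a, the RNA-binding repressor of let-7 maturation, had 134, 135 and 126 TPM in etoposide against 193, 189 and 181 TPM in untreated cells (-0.51 ± 0.04). The secreted phosphoprotein gene Spp1 fell by 0.47 ± 0.05 on the log2 scale, the orphan receptor gene Nr0b1 by 0.38 ± 0.05 and the growth factor gene Fgf4 by 0.27 ± 0.03. Klf4 (0.02), Sox2 (-0.05) and Esrrb (-0.10) were not called, and Dppa4 rose by 0.14 ± 0.04. The direction of the list's median was the same on FPKM and after median-of-ratios or quantile scaling.

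Genes of later stages were mostly lower or not called. The counts below compare with 20.8% of all genes tested higher and 13.7% lower, and most of these lists are small. Of 13 tested primed pluripotency genes, 6 were lower and 1 was higher. Otx2, a driver of the primed state, had 9.93, 8.91 and 8.17 TPM in etoposide against 14.7, 12.5 and 16.5 TPM in untreated cells (-0.64 ± 0.11). Zic2 fell by 0.64 ± 0.09 on the log2 scale and Foxd3 by 0.50 ± 0.06, while the tight junction gene Cldn6 rose by 0.82 ± 0.08. Among 9 tested primitive streak and mesoderm genes 4 were lower and 1, Wnt3, was higher, and Gsc, a homeobox gene of the organiser, had 2.42, 2.07 and 1.44 TPM in etoposide against 4.11, 4.96 and 3.97 TPM in untreated cells (-0.86 ± 0.14). On FPKM, where low members could go untested, 2 of these genes were lower and none higher. On TPM 2 were lower without untreated or etoposide library 2. Of 4 tested neuroectoderm genes 3 were lower and none higher, by limma also at an unadjusted p under 0.05. Trophectoderm genes were lower in 6 of 13 cases and higher in 2. On FPKM 5 were lower and none higher, again with low members possibly untested. On TPM 3 were lower without untreated or etoposide library 2. Higher trophectoderm genes numbered 1 without any one library other than untreated library 2. Extraembryonic endoderm genes were higher in 5 of 11 cases and lower in 1, among them Hnf4a (0.63 ± 0.10), Pdgfra (0.65 ± 0.12) and the basement membrane genes Col4a1 and Lamb1. Of 9 tested genes of the 2-cell-like state, Zfp750 was higher and Pramel6 was lower.

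**Figure D4:**
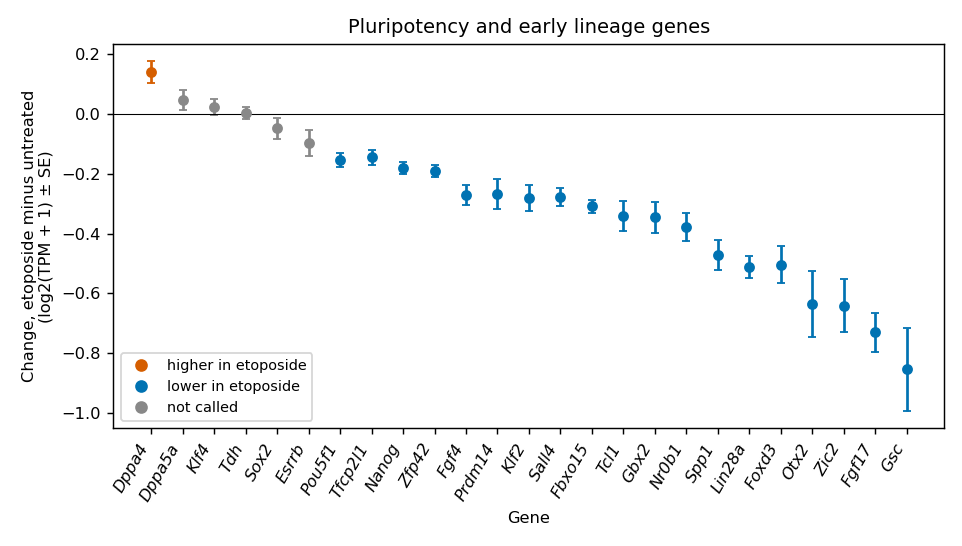
Change in log2(TPM + 1), etoposide minus untreated, with its standard error (n = 3 each), for pluripotency and early lineage genes. Blue points were called lower, the orange point, Dppa4, was called higher and grey points were not called. Pou5f1 and Nanog lie between -0.15 and -0.18, and Gsc is the lowest at -0.86.

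Signalling genes moved in both directions. For comparison with the counts below, 20.8% of all genes tested were higher and 13.7% lower. In the Notch list 5 of 10 tested genes were higher (50%) and 1 was lower (10%). Notch3 had 75.4, 72.9 and 77.4 TPM in etoposide against 24.7, 26.6 and 28.0 TPM in untreated cells, a 2.84-fold ratio (1.48 ± 0.06, limma adjusted p 1.76e-09). Jag2, a Notch ligand gene, had 21.4, 21.4 and 20.7 TPM in etoposide against 7.66, 7.38 and 7.77 TPM in untreated cells (1.36 ± 0.05). Both genes had groups that did not overlap, and Nrarp, a feedback target of Notch, rose by 0.77 ± 0.13. In the Nodal and TGF-beta list 7 of 13 were higher and 2 lower, including Nodal itself (0.40 ± 0.03) and Gdf15, a stress cytokine gene (1.05 ± 0.08). The called Wnt ligand genes, Wnt3, Wnt3a, Wnt6, Wnt7b and Wnt8a, were higher (Wnt7b not without untreated library 1 or 2 or etoposide library 1 or 2), with Wnt6 at 11.5, 12.0 and 12.3 TPM in etoposide against 4.78, 4.85 and 5.59 TPM in untreated cells (1.09 ± 0.09). Axin2 and Sp5, direct targets of Wnt signalling, fell by 0.33 ± 0.04 and 0.43 ± 0.07 on the log2 scale. Across the 19 Wnt genes tested on TPM 6 were higher and 8 lower. On FPKM, where low members could go untested, 1 was higher and 7 lower. Bmp7 rose by 1.18 ± 0.09, Bmp4 fell by 0.51 ± 0.10 on the log2 scale, and the BMP target Id3 fell by 0.31 ± 0.04. Lif, the cytokine gene that sustains stem cell self-renewal, had 11.7, 12.3 and 11.5 TPM in etoposide against 5.28, 4.54 and 5.35 TPM in untreated cells (1.08 ± 0.07). Fgf17, a target of FGF signalling, had 11.3, 11.0 and 11.7 TPM in etoposide against 17.6, 21.5 and 19.5 TPM in untreated cells (-0.73 ± 0.07).

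Immediate early and AP-1 genes were higher in 10 of 22 cases (45.5%) and lower in 3 (13.6%), against 20.8% and 13.7% of all genes tested. On FPKM, where low members could go untested, 5 were higher and 4 lower. Fosl1, Fos and Jun, subunits of AP-1, rose by 1.96 ± 0.13, 1.22 ± 0.14 and 0.78 ± 0.09. Their levels stayed low, at 3.41, 3.70 and 3.58 TPM for Fos in etoposide against 1.24, 0.69 and 0.98 TPM in untreated cells. Myc, a growth-promoting factor, had 20.4, 22 and 19.2 TPM in etoposide against 28.9, 30.4 and 27.7 TPM in untreated cells (-0.48 ± 0.06). Interferon and DNA sensing genes were higher in 5 of 16 cases (31.2%) and lower in 2 (12.5%), near the 20.8% and 13.7% of all genes tested. NF-kB and inflammatory genes were higher in 3 of 12 (25%) and lower in none, with 1 lower by limma at an unadjusted p under 0.05. Of 23 tested genes for unfolded protein stress and ATF4, the amino acid response factor, 12 were lower (52.2%) and 3 higher (13%). All genes tested were lower in 13.7% and higher in 20.8% of cases, and those above 200 TPM were lower in 37.4%. The part of level in this count was not tested. The serine synthesis gene Psat1 fell by 0.35 ± 0.07 on the log2 scale. Of 13 heat shock genes 3 were higher (23.1%) and 6 lower (46.2%). The constitutive Hspa8 had the greatest loss in TPM among called genes with separate groups, leaving out clone and model names. It had 2678, 2700 and 2686 TPM in etoposide against 3212, 3201 and 3225 TPM in untreated cells (-0.26 ± 0.02). The inducible Hspa1a had 2.39, 2.62 and 2.76 TPM in etoposide against 0.80, 0.79 and 0.74 TPM in untreated cells (1.01 ± 0.11). Hspa1a is nearly identical to Hspa1b, and reads could be split between them. Glycolysis genes were lower in 6 of 22 cases (27.3%) and higher in none, by limma also at an unadjusted p under 0.05. Over all genes tested 13.7% were lower, and among those above 200 TPM 37.4%. Hk2, a hexokinase gene, changed by -0.29 ± 0.03.

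DNA repair genes were called at shares near those of all genes in most lists, and their changes were mostly small. Of 37 homologous recombination genes 9 were higher (24.3%) and 5 lower (13.5%), against 20.8% and 13.7% of all genes tested. The count of lower genes was 1 without untreated library 1 or 2 or etoposide library 3 and 2 without etoposide library 1 or 2, and median-of-ratios scaling gave 6 higher and 6 lower. Among 25 end joining genes 6 were higher and 1 lower, led by Shld2, of the shieldin complex, with 29.1, 32.5 and 32.1 TPM in etoposide against 17.5, 19.2 and 18.9 TPM in untreated cells (0.72 ± 0.06). Shld2 was higher in every etoposide library than in any untreated library. Fanconi anemia genes were higher in 4 of 19 cases and lower in 2. Base excision repair genes were higher in 5 of 21 and lower in 3, with the scaffold gene Xrcc1 up by 0.57 ± 0.03. Nucleotide excision repair genes were higher in 6 of 20 cases, of which Ercc5 and Ddb2 are p53 targets, and lower in 1. Mismatch repair genes were lower in 4 of 12 cases (33.3%) and higher in 2 (16.7%), with Pcna, the sliding clamp gene, at -0.15 ± 0.02 and Lig1, a DNA ligase gene, at -0.13 ± 0.02. That count of lower genes was 2 without untreated library 1 or 2 or etoposide library 1 or 2. The medians of these lists lay between -0.045 and 0.075, and those for end joining, Fanconi anemia and nucleotide excision repair changed sign with the scaling. In the damage checkpoint list 2 of 21 genes were higher and 2 lower. Among 15 genes of topoisomerases and of the removal of trapped topoisomerase 5 were higher and 1 lower, and 3 were higher without untreated library 2 or etoposide library 2 or 3. Abcb1b, a drug efflux pump gene, had 98.1, 106 and 109 TPM in etoposide against 46.4, 48.0 and 48.3 TPM in untreated cells (1.12 ± 0.05), and its paralogue Abcb1a was not called (-0.08). Top2b, whose product is a target of etoposide, had 18.2, 19.07 and 18.9 TPM in etoposide against 16.9, 15.5 and 16.8 TPM in untreated cells (0.18 ± 0.06), a call lost without untreated library 2 or 3 or etoposide library 2 or 3. Top2a, also a topoisomerase II gene, was far more abundant and was not called. It averaged 398 TPM in etoposide and 402 TPM in untreated cells (-0.01 ± 0.03).

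Cell cycle genes were more often lower than higher, by small amounts. Of 34 G2/M and mitosis genes 15 were lower (44.1%) and 2 higher (5.88%), against 13.7% and 20.8% of all genes tested. The median of this list was -0.09, and its summed level was 4879 to 4899 TPM in etoposide and 5096 to 5155 TPM in untreated cells. Plk1, a mitotic kinase gene, had 131, 120 and 125 TPM in etoposide against 161, 173 and 165 TPM in untreated cells (-0.41 ± 0.04, limma adjusted p 6.98e-06). Ect2, needed for cytokinesis, fell by 0.27 ± 0.04 on the log2 scale and Cdk1 by 0.19 ± 0.03. Of 32 S phase and replication genes 12 were lower (37.5%) and 4 higher (12.5%). These shares were near the 37.4% lower and 12.4% higher of all genes above 200 TPM. Among all genes of 50 to 200 TPM, 26.4% were lower and 16.4% higher. The part of level in both cell cycle counts was not tested. Ccne1, encoding cyclin E1, had 249, 245 and 244 TPM in etoposide against 287, 282 and 287 TPM in untreated cells (-0.21 ± 0.02), while Rrm2, encoding a ribonucleotide reductase subunit, rose by 0.20 ± 0.02. The medians of both lists were below 0 under every scaling tried. Of 46 listed replication-dependent histone genes 11 were tested, and by limma 0 of the 11 were called and 0 had an unadjusted p under 0.05, while 2 were lower after quantile normalization. The list does not hold every histone gene. H2ac11 and H2ac12, which are not on it, were called lower, by 0.72 and 0.80 on the log2 scale. These libraries were poly(A)-selected, and such transcripts mostly lack a poly(A) tail.

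**Figure D5:**
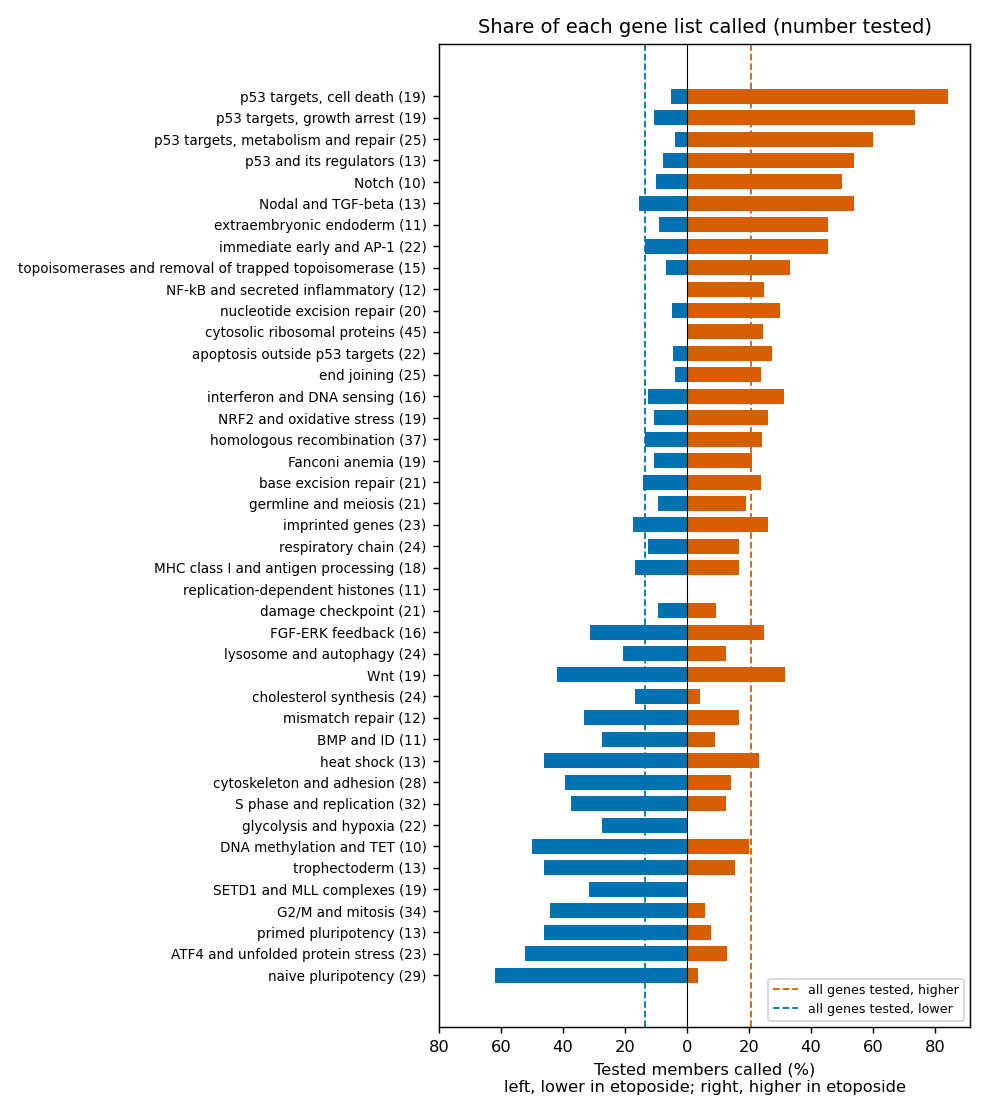
Percent of the tested members of each gene list called lower (blue, left) and higher (orange, right) in etoposide, with the number tested in parentheses. Dashed lines mark the shares among all genes tested, 13.7% lower and 20.8% higher. Of the lists drawn, the p53 lists stand at the top, led by the cell death targets with 16 of 19 higher. Naive pluripotency stands at the bottom with 18 of 29 lower.

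The genes with the lowest changes were of mixed kinds, and the lowest were the microRNA entries Mir12202 (-1.33) and Mir7651 (-0.99). Etv1, an ETS factor gene, had 6.38, 5.54 and 5.97 TPM in etoposide against 12.4, 13.8 and 9.53 TPM in untreated cells (-0.87 ± 0.16). Emp1, an epithelial membrane protein gene, had 21.8, 24.6 and 24.8 TPM in etoposide against 37.9, 44.8 and 43.9 TPM in untreated cells (-0.80 ± 0.08). The groups of both genes were separate. Kirrel1, an adhesion molecule gene, fell by 0.75 ± 0.11 on the log2 scale, Pou4f2, a POU factor gene, by 0.78 ± 0.11 and Msc, a bHLH repressor gene, by 0.69 ± 0.10. Also among the 20 lowest were Gsc, Fgf17 and Tspan17, the overlapping pair Vax2 and Vax2os, and Gpha2, which overlaps Ppp2r5b on the other strand. The histone genes H2ac11 and H2ac12 and the genes Fam110d and Rln3 completed the named genes, and single libraries decided several of these calls. H2ac12 lost its call without untreated library 2 or etoposide library 1 or 2, Fam110d without untreated library 1 or etoposide library 2 or 3, and Rln3 without untreated library 1 or 3 or etoposide library 2 or 3. The other 5 entries were Mir12202, Mir7651, Mir6918, Mir485 and Snord42a, small RNAs of which all but Mir485 lie inside another expressed gene, so their values are uncertain. Mir6918 lost its call without untreated library 1 or 2 or etoposide library 2 or 3, and Snord42a without untreated library 1 or etoposide library 1 or 2. Among called genes with separate groups, leaving out clone and model names, the greatest losses in TPM were those of abundant genes. Hspa8 was followed by Hsp90aa1, Actb, Trim28, Spp1, Eif4a1, Set, Aldoa, H2az1 and Pfn1, with log2 changes between -0.47 and -0.14. Trim28, a silencer of retroelements, had 1380, 1338 and 1342 TPM in etoposide against 1658, 1656 and 1648 TPM in untreated cells. In the same ranking, the greatest gains in TPM after Ccng1 were those of Rplp1, Rpl10a, Trp53inp1, Pabpc1, Rps27l, Ctsd, Mdm4, Pmm1 and Mdm2. Of these, Rplp1 lost its call without untreated or etoposide library 3 and under other scalings. Rps27l, a ribosomal protein gene that is also a p53 target, rose by 0.26 ± 0.03, against a median of 0.04 for 45 cytosolic ribosomal protein genes. Of these 45 genes 11 were higher on TPM (24.4%, near the 20.8% of all genes tested). On FPKM or after median-of-ratios scaling 5 were higher.

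Of 19 genes for SETD1 and MLL methyltransferase complexes, the family that contains BOD1L, 6 were lower (31.6%) and none was higher, by limma also at an unadjusted p under 0.05. Over all genes tested 13.7% were lower and 20.8% higher. Among genes of 50 to 200 TPM 26.4% were lower, and above 200 TPM 37.4%. The list summed to 2404 to 2440 TPM in untreated cells, and the part of level in its count was not tested. Wdr5, a core subunit gene, had 299, 318 and 316 TPM in etoposide against 363, 356 and 356 TPM in untreated cells (-0.20 ± 0.03). In the DNA methylation list 5 of 10 were lower and 2 higher, and the de novo methyltransferase gene Dnmt3b fell by 0.31 ± 0.03 on the log2 scale.

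The same contrast in Bod1l knockout cells was used to ask whether the wild-type changes differed between genotypes. The interaction term passed an adjusted p of 0.05 for 173 genes (1.23%), 169 of them among the 4834 genes called in wild type (3.5%). The count was 115, 109 and 93 without wild-type etoposide libraries 1, 2 and 3, 131, 108 and 132 without wild-type untreated libraries 1, 2 and 3, and 79 with a replicate block. Genes called in wild type were chosen with the same wild-type libraries that enter the interaction, so the shares below describe these libraries and the choice favours a smaller knockout change. For 161 of the 2919 genes higher in wild type (5.52%) the knockout change was smaller or opposite, and for none was it larger by this test. At an unadjusted p under 0.05 it was larger for 7 of them and smaller or opposite for 923. The same held for 8 of the 1915 genes lower in wild type (0.418%). Of the 45 listed coding p53 targets called higher, 16 differed, each with a smaller or opposite knockout change. For comparison, 109 of the 344 genes higher by 2-fold or more in wild type differed in that direction (31.7%). Mdm2 averaged 364 TPM in knockout etoposide and 205 TPM in knockout untreated cells, against 270 TPM in wild-type etoposide and 114 TPM in wild-type untreated cells, so its change was 0.82 ± 0.03 in knockout and 1.23 ± 0.03 in wild-type cells (difference -0.41 ± 0.05, limma adjusted p 0.00125). The knockout untreated level of Mdm2 was above the wild-type untreated level. Tamoxifen and genotype cannot be told apart between the knockout and wild-type contrasts.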

How the data were processed

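RNA abundance per gene was measured in 12 libraries of mouse embryonic stem cells. Per the labels' protocols, Trizol RNA was poly(A)-selected, depleted of ribosomal RNA and made into strand-specific libraries. Per the submitters' processing notes, Trim Galore 0.6.6, cutadapt 3.4, HISAT2 2.2.1 and StringTie 2.2.1 were used, with build GRCm39. The deposited TPM values were scaled by the authors for length and to a fixed total per library. The deposited FPKM values were scaled by the authors for length and sequenced fragments. The deposited coverage is the authors' mean signal per gene and served only to estimate depth. No counts were used here and no count test was run.

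Entries of one gene ID were summed, and genes with mean TPM of at least 1 over the 6 wild-type libraries were kept. limma 3.58.1 in R 4.3.3 was fitted to log2(TPM + 1) of all 12 libraries as 4 group means, so that the groups share one estimate of the spread (residual degrees of freedom 8, prior 3.93), with a trend on abundance. P-values were two-sided and adjusted by Benjamini-Hochberg over the 14018 genes at 0.05. An exact permutation test of 3 against 3 libraries cannot go below 0.1, so none was used. The fit was tested on simulated data. Tables and figures were made with Python 3.11.15 (pandas 2.3.3, numpy 2.4.6, matplotlib 3.10.9). The members and gene lists were chosen with earlier results of these data known. Genes named were the 20 highest and 20 lowest changes among called genes whose groups did not overlap, leaving out clone and model names, the 10 largest TPM differences each way, Bod1l and members of the lists. Some of these genes are not reported here. Alternatives were a pseudocount of 0.1, no filter or a filter at 5 TPM, FPKM, 2 other scalings, wild-type libraries alone, a robust spread, no trend, a replicate block and each wild-type library left out. No mitochondrial gene could be described, since all 37 were listed at 0 in every library.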

Additional observations from a re-analysis of the deposited data

Results flagged for a closer look

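Among the genes named by rank, 19 had an etoposide change that differed between genotypes by limma's interaction term with Benjamini-Hochberg adjustment. They were named for a large change in the same wild-type libraries, a choice that favours a smaller knockout change. In each the change was smaller in Bod1l knockout than in wild-type cells, and the knockout untreated mean was above the wild-type untreated mean. The part of that higher starting level in the difference was not tested. The differences of log2(TPM + 1) changes, knockout minus wild type, were -1.153 for Plcd4, -1.091 for Nectin4, -1.082 for Tap1, -1.008 for Ltb4r1, -0.896 for Ano7, -0.876 for Col9a3 and -0.871 for Anxa8. They were -0.803 for Azin2, -0.787 for Sytl1, -0.779 for Ddit4l, -0.768 for Plch2, -0.76 for Them5, -0.737 for Zfp750 and -0.696 for Sec14l5. Among genes named for their TPM gain they were -0.521 for Trp53inp1, -0.408 for Mdm2, -0.32 for Mdm4, -0.301 for Ccng1 and -0.194 for Pmm1. Tap1, for example, averaged 17.7 TPM in knockout etoposide and 5.71 TPM in knockout untreated cells, against 14.5 TPM in wild-type etoposide and 1.62 TPM in wild-type untreated cells.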

How the results depend on the processing

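The 2919 higher and 1915 lower calls stayed within 1.5 times under every alternative tried, and leaving out single wild-type libraries gave 2531 to 2670 higher and 1537 to 1693 lower genes. The 882 genes higher by 1.5-fold or more became 505 with a filter at mean TPM 5 and 515 on FPKM, and 867 to 903 without single libraries. The 51 genes lower by 1.5-fold or more became 98 with pseudocount 0.1, 26 with a filter at mean TPM 5, 23 on FPKM and 162 after quantile normalization, and 55 to 61 without single libraries. The filter at 5 and the FPKM fit tested fewer genes (10694 and 11985), and the cause of the other shifts was not tested. The 173 genes whose change differed between genotypes became 93 to 132 when single wild-type libraries were left out, with 108 without untreated replicate 2 and 115, 109 and 93 without etoposide replicates 1, 2 and 3. Same-numbered wild-type libraries did not deviate together (correlations of 0.02, -0.04 and 0.04), and the numbers were not used as pairs. Such correlations cannot exclude that equal numbers mark a shared culture or day. With a replicate block the counts were 2740 higher, 1744 lower, 884 and 54 past 1.5-fold, and 79 differing between genotypes. No called change of a named gene reversed under these alternatives. Medians near 0 changed sign with the scaling for end joining, Fanconi anemia, nucleotide excision repair, checkpoint, germline, interferon, MHC, NRF2, respiratory and imprinted genes. Values near 1 TPM rest on little signal, and the number of reads behind a value is not known.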

Other observations

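Of 23 tested imprinted genes 6 were higher (26.1%) and 4 lower (17.4%), near the 20.8% and 13.7% of all genes tested, with Mest, which overlaps Copg2 on the other strand, changed by -0.45 ± 0.05 and Zim1, a zinc finger gene, changed by 0.86 ± 0.11. The germline gene Hormad1, which encodes a meiotic chromosome axis protein, had 35.0, 34.3 and 35.0 TPM in etoposide against 19.2, 19.3 and 20.7 TPM in untreated cells. Cytoskeleton and adhesion genes were lower in 11 of 28 cases (7 without untreated library 2 or etoposide library 1) and higher in 4, with Itga5 at -0.30 ± 0.04 and Cd44 at 0.72 ± 0.12. The lysosomal protease gene Ctsd had 527, 531 and 540 TPM in etoposide against 327, 362 and 379 TPM in untreated cells, while Ctsl fell by 0.25 ± 0.05 on the log2 scale.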
